A study of Rattus norvegicus with 56 samples.

Results

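The microRNAs of normal amniotic fluid were compared with those of normal fetal heart muscle. The members were the 14 control samples of these tissues, out of 56 samples in the series: 7 of amniotic fluid and 7 of myocardium, all labelled NC. Both groups came from Sprague-Dawley rats at embryonic day 19, and the NC dams received distilled water where the other dams received dimethadione, so no NC sample was exposed to that compound. The heart RNA was taken from wax blocks with the RecoverAll kit, made into TruSeq small RNA libraries and run on a HiSeq instrument. The fluid RNA was taken with the HiPure kit, made into libraries with the QIAseq kit and run on a NovaSeq instrument. The fluid was stored as frozen supernatant. Tissue, storage, RNA kit, library kit, sequencer and count table therefore changed together, and their parts in any difference below cannot be told apart. The litter and dam of each fetus are not given, so the p-values measure the spread between these samples only.

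Because the kits differed, each microRNA was ranked within its own sample and not compared by its level. A percentile rank of 100 is the most abundant microRNA of a sample and a value near 0 the least abundant, with tied counts sharing their mean rank. For the fluid 493 mature microRNAs were listed and for the heart 661, and 481 names were common to both. Of these, 280 had a mean of at least 50 CPM (a microRNA's counts scaled to a library total of 1000000) over the 14 samples and were tested. A microRNA whose mean was under 50 CPM in the fluid passed only through the heart, and the reverse. For such a microRNA the direction of the difference was largely set by the filter, and its adjusted p is no separate support. This holds for every such member counted or named below, also where it is not repeated. A microRNA was called where the limma adjusted p was under 0.05 and the mean ranks differed by at least 25 percentile points.

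A microRNA is a short RNA that guides silencing proteins to messenger RNAs, mainly by pairing through its seed, the bases from position 2 to 8. Many microRNAs are made mostly in 1 kind of cell, so a body fluid carries a mixture that reflects which cells shed RNA into it. Amniotic fluid is fed by fetal urine and lung liquid and is in contact with fetal skin, gut and membranes, whereas the heart has no direct opening to it. In the heart, miR-1 and miR-133a are cut from shared transcripts and act in cardiomyocyte growth and excitability, and miR-208a, miR-208b and miR-499 lie within myosin heavy chain genes. In bulk samples, fewer cells of a type and less RNA per cell cannot be told apart.

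The fluid libraries held 79234 to 248295 microRNA counts and the heart libraries 4366457 to 9371130. A count of 0 in a fluid library allowed a true level of up to 12.1 to 37.9 CPM, depending on the library, from counting error alone. As a check of the heart label, the striated muscle markers took 1.66 to 15.5% of counts in the heart samples and the epithelial markers 0.0845 to 2.48%. Myocardium NC replicate 2 stood apart, with the lowest striated muscle share (1.66%, against 7.45 to 15.5% in the other 6) and the highest epithelial share (2.48%, against 0.0845 to 0.875%). Its median Spearman correlation with the other heart samples was 0.849, against 0.932 to 0.962 for the rest. Some results that rest on it are given with and without it, and others only with it.

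The mature sequences of the striated muscle microRNAs are shown first, because the question turns on them and because several are nearly alike. They are RefSeq sequences of the rat genome build GRCr8, 5′ to 3′, with the seed in capitals.
miR-1-3p: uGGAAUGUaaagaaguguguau
miR-1b: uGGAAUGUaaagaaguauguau
miR-206-3p: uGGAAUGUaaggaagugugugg
miR-133a-3p: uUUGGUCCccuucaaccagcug
miR-133b-3p: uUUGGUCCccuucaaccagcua
miR-208a-3p: aUAAGACGagcaaaaagc
miR-208b-3p: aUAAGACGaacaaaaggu
miR-499-5p: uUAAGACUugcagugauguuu

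miR-1-3p, miR-1b and miR-206-3p shared the seed GGAAUGU, miR-133a-3p and miR-133b-3p the seed UUGGUCC, and miR-208a-3p and miR-208b-3p the seed UAAGACG. Counting positions from 1 at the 5′ end of the first-named sequence, miR-1-3p and miR-1b differed by G17A alone, miR-133a-3p and miR-133b-3p by G22A alone, and miR-1-3p and miR-206-3p by A11G, A21G and U22G. Reads of the close pairs can be split by the counting, so their separate values are uncertain. In GRCr8 miR-1-3p lies at chr18:2160339-2160360 (minus strand) and miR-133a-3p at chr18:2157886-2157907 (minus strand), both inside the span of Mib1. miR-206-3p at chr9:30590747-30590768 (plus strand) and miR-133b-3p at chr9:30594629-30594650 (plus strand) are neighbours of each other. miR-208a-3p at chr15:32395568-32395585 (minus strand) lies within Myh6, miR-208b-3p at chr15:32421648-32421665 (minus strand) within Myh7 and miR-499-5p at chr3:164570616-164570636 (plus strand) within Myh7b. miR-1b lies at chr3:187864736-187864757 (plus strand).

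Of the 10 microRNAs with the most positive differences, 8 are shown next. They are 4 epithelial microRNAs, the miR-196 group of the Hox gene clusters and miR-3473, while miR-29a-3p and miR-296-3p are given by their values further on.
miR-203a-3p: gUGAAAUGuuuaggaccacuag
miR-205: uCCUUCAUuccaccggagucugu
miR-141-3p: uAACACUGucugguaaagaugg
miR-375-3p: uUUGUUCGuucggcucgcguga
miR-196a-5p: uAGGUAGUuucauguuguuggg
miR-196b-5p: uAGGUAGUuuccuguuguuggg
miR-196c-5p: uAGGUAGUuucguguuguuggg
miR-3473: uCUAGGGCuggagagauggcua

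The 3 miR-196 microRNAs shared the seed AGGUAGU, with A12C between miR-196a-5p and miR-196b-5p and A12G between miR-196a-5p and miR-196c-5p. The other 5 had seeds of their own. In GRCr8, miR-203a-3p lies at chr6:137020756-137020777 (plus strand), miR-205 at chr13:107564588-107564610 (minus strand), miR-141-3p at chr4:159209540-159209561 (minus strand) and miR-375-3p at chr9:83906591-83906612 (minus strand), which is within the span of Cryba2. miR-3473 lies at chr13:42051730-42051751 (plus strand), within the span of Zranb3. The miR-196 microRNAs lie at chr7:135988900-135988921 (plus strand), chr4:82661149-82661170 (minus strand) and chr10:81727561-81727582 (plus strand).

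Fluid and heart ranked their microRNAs in a similar order only in part. The Spearman correlation between a fluid sample and a heart sample had a median of 0.331 over 49 pairs (range 0.251 to 0.458) across the 280 microRNAs. Within the fluid the median of 21 pairs was 0.888 (range 0.843 to 0.927), and within the heart it was 0.936 (range 0.774 to 0.986). Every pair across the tissues was thus below every pair within a tissue. Without myocardium NC replicate 2 the median across tissues was 0.320. The size of the agreement depended on which microRNAs were ranked. It was 0.630 over all 481 shared names, where many are rare in both tissues, and 0.0989 over the 187 with a mean of at least 200 CPM.

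**Figure D1:**
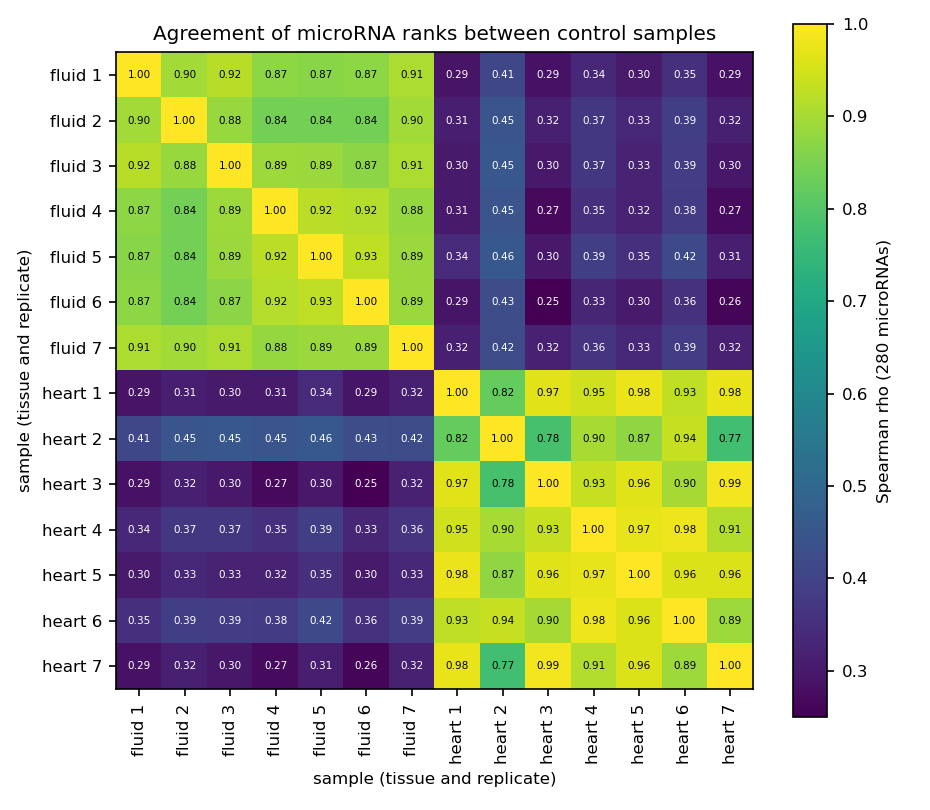
Spearman correlation of counts between every pair of the 14 control samples over 280 microRNAs, samples on both axes and the correlation as colour and number. The off-diagonal blocks between fluid and heart lie between 0.251 and 0.458, and the row of heart replicate 2 is the highest of them.

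Among the abundant microRNAs the overlap was partial. The 10 highest-ranked microRNAs of each tissue had 2 in common, let-7i-5p and let-7f-5p, the first 20 had 3, the first 50 had 23 and the first 100 had 57. Of the heart's first 50, 46 had at least 1 count in every fluid sample, and 42 had at least 10, so most were detectable in the fluid. However, 11 of the 50 had a mean percentile under 50 there. Conversely, 10 of the fluid's first 50 had a mean percentile under 50 in the heart.

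Across the 280 microRNAs, 118 were called (42.1%), of which 59 ranked higher in the fluid (21.1%) and 59 lower (21.1%). The ranges of the 7 and the 7 samples did not overlap for 142 (50.7%). The median absolute difference was 20.5 points, and 69 microRNAs lay within 10 points of each other in the 2 tissues. Without myocardium NC replicate 2, 120 were called. On log2(CPM + 1) with limma, 200 were called, 127 higher and 73 lower, whereas edgeR called 88 higher and 115 lower and DESeq2 89 higher and 121 lower. The 10 most abundant microRNAs took 45.6 ± 1.5% of counts in a fluid sample and 65.1 ± 4.21% in a heart sample (SD, n = 7 each, two-sided exact permutation p = 0.000583, the smallest that 7 against 7 can give). The ranges did not overlap.

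**Figure D2:**
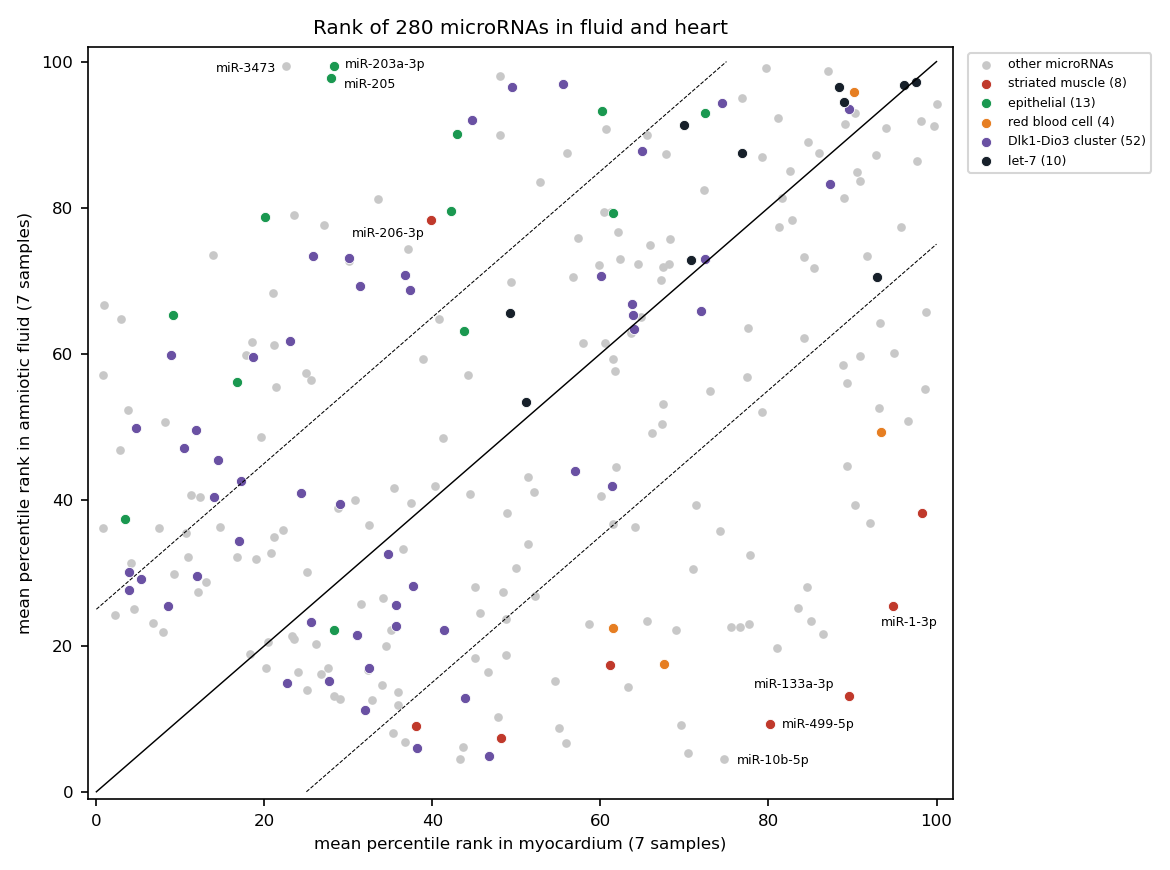
Mean percentile rank of 280 microRNAs in 7 myocardium samples (x axis) and 7 amniotic fluid samples (y axis), coloured by list, with the line of equal rank and dashed lines at 25 points. Striated muscle microRNAs other than miR-206-3p lie below the line of equal rank, epithelial ones mostly above it, and the 10 let-7 members between the dashed lines.

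Striated muscle microRNAs ranked far lower in the fluid than in the heart, with 1 exception. Of 15 mature microRNAs of the list in either table, 8 were tested, of which 7 ranked lower in the fluid while miR-206-3p ranked higher (background 21.1% in each direction). The median difference was -52.0 points, against 0.536 over all 280. Since the list was chosen with the tissue in mind, a high rank of its members in the heart was built into the choice.

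miR-133a-3p had the most negative difference of all 280 microRNAs. Its fluid counts in replicates 1 to 7 were 0, 0, 2, 0, 78, 12 and 0, against 14236 to 89518 in the heart. It ranked at the 2.68 to 44.6 (median 8.39) percentile in the fluid and 72.5 to 95 (median 92.5) in the heart, a difference of -76.5 points (SE 5.77, limma adjusted p = 1.75e-09). No fluid sample reached the lowest heart sample. miR-1-3p, the other main microRNA of cardiomyocytes, had fluid counts of 0, 0, 56, 6, 256, 2 and 12. Its percentiles were 6.96 to 64.6 (median 10.5) in the fluid and 82.5 to 98.9 (median 96.8) in the heart, a difference of -69.3 points (SE 7.99, limma adjusted p = 4.13e-07). In both cases fluid replicate 5 held most of the reads, and 2 or more of the 7 fluid libraries had none. miR-1b, which differs from miR-1-3p by 1 base, was spread more evenly, with 13, 31, 57, 41, 66, 22 and 12 fluid counts and a difference of -60.2 points (SE 3.69, limma adjusted p = 1.47e-10).

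The myosin-gene microRNAs were near the bottom of the fluid. miR-499-5p, which ranked at the 51.8 to 88.6 (median 85) percentile in the heart, had 30 counts over all 7 fluid libraries and 4.11 to 15.7 as its percentile there, a difference of -70.9 points (SE 5.03, limma adjusted p = 7.60e-10). miR-208b-3p had 10, 10, 23, 7, 12, 0 and 0 fluid counts. Its ranges overlapped through heart replicate 2 at 17.1, where the other 6 were at 61.1 to 75, and the difference was -43.9 points (limma adjusted p = 6.57e-05), or -51.2 without that sample. miR-133b-3p differed by -40.8 points and miR-133a-5p by -29.0, on 19 and 33 fluid counts in all. With fluid means of 12.1 and 21.6 CPM, both passed the filter only through the heart, as did miR-499-5p at 21.5 CPM. Their direction was thus largely set by the filter. miR-208a-3p, from the adult-type myosin gene Myh6, had 25 fluid and 2087 heart counts and miR-208a-5p 4 and 214, and both were under the filter. The passenger strands miR-1-5p, miR-133b-5p, miR-206-5p, miR-208b-5p and miR-499-3p were listed in the heart table only, with 4 to 371 counts.

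miR-206-3p, a microRNA of skeletal muscle, went the other way. Its fluid counts were 380, 146, 5544, 81, 13904, 57 and 1271, so replicates 3 and 5 held most of its 21383 reads. Its fluid percentile was 43.8 to 98.6 (median 82.9). In the heart it had 161, 1747, 168, 5297, 129, 23420 and 149 counts in replicates 1 to 7, with percentiles of 14.6 to 85 (median 29.3). The groups overlapped, with a difference of 38.4 points (SE 11.9, limma adjusted p = 0.00735), and among microRNAs with at least 10 counts in every sample the difference was 32.3 points with a limma adjusted p of 0.0519. Heart replicates 2, 4 and 6 were the high ones. In the fluid, replicates 3 and 5 also had the highest miR-1-3p and the only miR-133b-3p counts (3 and 16).

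The balance among muscle microRNAs within a sample does not depend on the rest of the library, so 5 ratios were compared by two-sided exact permutation, with Benjamini-Hochberg adjustment over the 5. The log2 ratio of miR-206-3p to miR-133a-3p was 8.17 ± 3.09 in the fluid and -5.69 ± 3.54 in the heart (exact permutation p = 0.000583, adjusted p = 0.00146), and the ranges did not overlap. The log2 ratio of miR-208b-3p to miR-1-3p was -0.51 ± 3.75 in the fluid and -5.32 ± 0.43 in the heart (exact permutation p = 0.000583, adjusted p = 0.00146). The heart maximum was -4.96. With 12 or fewer miR-1-3p counts, fluid replicates 1, 2, 4, 6 and 7 could not fall that low even at 0 counts of miR-208b-3p. This p was therefore largely set by depth and the 0.5 counts added. The ratio of miR-206-3p to miR-133a-3p likewise could not reach the heart range where miR-133a-3p had 0 fluid counts. The ratio of miR-499-5p to miR-1-3p had an exact permutation p of 0.332, that of miR-133a-3p to miR-1-3p 0.929 and that of miR-1b to miR-1-3p 0.474. All 5 rest on few fluid counts and on 0.5 counts added to each, so their size in the fluid is loosely set, as SDs of 2.66 to 3.75 show.

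**Figure D3:**
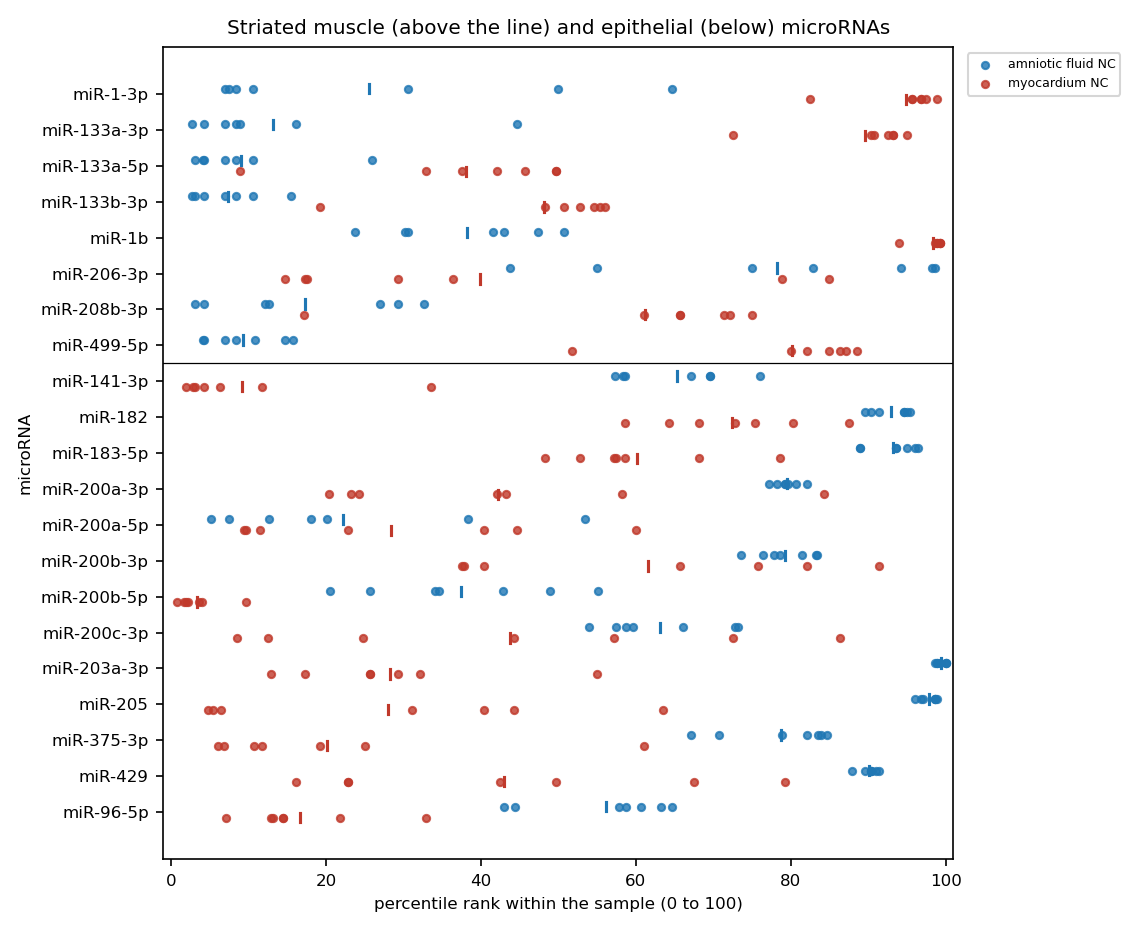
Percentile rank within each of 14 control samples (x axis) for the 8 striated muscle and 13 epithelial microRNAs tested (y axis), 1 point a sample and a bar at the mean of each tissue. The fluid means lie below the heart means for 7 muscle microRNAs. The ranges of 5 of them do not overlap, near the share over all 280 microRNAs (50.7%). miR-206-3p is spread from 43.8 to 98.6 in the fluid.

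Epithelial microRNAs had the most positive median difference of the 15 lists. The list holds the miR-200 family, which keeps cells epithelial by repressing ZEB1 and ZEB2, the skin and stratified-epithelium microRNAs miR-203a and miR-205, the cluster of miR-183, miR-96 and miR-182, and miR-375. Of 19 mature microRNAs listed, 13 were tested, 9 ranked higher in the fluid and none lower (background 21.1% in each direction), with a median difference of 37.2 points. Together they took 14.5 ± 2.87% of fluid counts (range 10.5 to 18%) and 0.597 ± 0.873% of heart counts (SD, n = 7 each), and these ranges did not overlap. Without myocardium NC replicate 2, a choice made after seeing the data, the heart mean was 0.284 ± 0.298% (SD, n = 6). Of the 4 that were not called, miR-182, miR-200c-3p and miR-200b-3p had differences of 20.6, 19.4 and 17.7 points, and the passenger strand miR-200a-5p had -6.15.

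miR-203a-3p, which restrains growth of skin progenitor cells, ranked at the 98.6 to 100 (median 99.3) percentile in the fluid and 12.9 to 55 (median 25.7) in the heart, a difference of 71.1 points (SE 4.74, limma adjusted p = 3.55e-10). It was the most abundant microRNA of 3 fluid samples. miR-205 ranked at 96.1 to 98.9 (median 98.6) in the fluid and 4.82 to 63.6 (median 31.1) in the heart, a difference of 69.8 points (SE 7.62, limma adjusted p = 2.01e-07). miR-141-3p and miR-375-3p differed by 56.1 and 58.6 points, and none of these 4 overlapped between the tissues (50.7% of all 280 did not). At a heart mean of 27.9 CPM, miR-141-3p passed the filter only through the fluid, so its direction was largely set by it. Among the heart samples, replicate 2 had the highest percentile of both miR-141-3p (33.6) and miR-375-3p (61.1).

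The single microRNA with the most positive difference was miR-3473. It had 65761 fluid counts and 1953 heart counts, although the heart libraries were far deeper. miR-296-3p had more heart counts (2138) at a heart mean of 44.6 CPM, so miR-3473 too passed the filter mainly through the fluid. Its direction was therefore largely set by the filter, and its adjusted p is no separate support. It ranked at 98.2 to 100 (median 99.6) in the fluid and 7.50 to 36.4 (median 21.6) in the heart, a difference of 76.8 points (SE 4.10, limma adjusted p = 7.45e-11). The miR-196 group had more counts in the fluid than in the far deeper heart libraries: miR-196a-5p had 1282 and 9, miR-196b-5p 1419 and 60, and miR-196c-5p 623 and 5 in the fluid and the heart. They differed by 65.7, 61.8 and 56.4 points. Their heart means were 0.18, 1.53 and 0.0991 CPM, so they passed the filter only through the fluid and their direction was largely set by it. miR-29a-3p, a repressor of collagen genes, differed by 59.6 points and miR-296-3p, from the imprinted Gnas region, by 55.5. With heart means of 23.7 and 44.6 CPM, both also passed only through the fluid. The 10 microRNAs with the most positive differences had fluid percentiles whose lowest sample was above the highest heart sample, as the rule for naming them required.

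The remaining microRNAs among the first 10 of the fluid ranked high in the heart in part. miR-16-5p ranked at 99.2 ± 0.340 in the fluid and 79.7 ± 4.19 in the heart, and miR-199a-3p, of mesenchymal cells, at 98.7 ± 1.91 and 87.0 ± 2.91 (SD, n = 7 each), so neither reached 25 points. let-7a-5p differed by 8.16 points. By contrast, miR-483-5p, which lies in the fetal growth factor gene Igf2, differed by 50 points and miR-434-3p, of the Dlk1-Dio3 domain, by 41.4.

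The microRNAs of the Dlk1-Dio3 domain form an imprinted cluster active in embryo and placenta. Of 89 listed, 52 were tested, 18 ranked higher and 3 lower (background 21.1% in each direction), with a median of 13.6 points. Their share of counts was 15.2 ± 4.70% in the fluid and 2.40 ± 1.77% in the heart (SD, n = 7 each), without overlap. The fluid share includes miR-409b (mean 7949 CPM), which was not listed for the heart. miR-154-5p (51 points), miR-369-3p (47.6), miR-431 (47.3) and miR-382-5p (47.0) had its widest gaps, all with ranges that did not overlap. miR-154-5p, on 844 heart counts in all, passed the filter only through the fluid. In the whole list 22 of 52 did not overlap, against 50.7% of all 280. Of the miR-290-295 cluster, known from embryonic stem cells and placenta, 2 of 9 were tested. miR-292-5p had 391 fluid and 77 heart counts and differed by 44.0 points, while miR-293-5p differed by 21.2 and was not called. On so few heart counts, miR-292-5p passed the filter only through the fluid, and its direction was largely set by it.

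In the liver, gut and kidney list 3 of 14 were tested, and 2 ranked higher in the fluid (background 21.1%). miR-194-5p and miR-192-5p, made from shared transcripts in those organs, ranked higher in the fluid by 47.3 and 31.5 points without overlap. miR-194-5p, on 1209 fluid and 1845 heart counts, passed the filter mainly through the fluid. The hepatocyte microRNA miR-122-5p had percentiles of 46.6 to 73.9 (median 62.9) in the fluid and 51.1 to 74.6 (median 65.4) in the heart, a difference of -0.816 points (limma adjusted p = 0.873). Of the ciliated cell list, 2 of 4 tested ranked higher in the fluid (background 21.1%), miR-449a-5p by 34.1 points and miR-34c-3p by 27.2. After thinning, miR-34c-3p differed by 24.2 points and was not called. On 320 heart counts in all, it passed the filter only through the fluid. For miR-449a-5p heart replicate 2 was at 71.1, and the other 6 at 6.43 to 31.8. Its difference was 12.4 points (limma adjusted p = 0.140) among microRNAs with at least 10 counts in every sample, and edgeR did not call it (adjusted p = 0.626). Without replicate 2 its difference was 42.3 points.

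The lists for other cells of the heart wall were lower in the fluid in part. Both endothelial microRNAs tested, miR-126a-3p and miR-126a-5p from the Egfl7 gene, were lower (background 21.1%), with differences of -34.8 and -45.4 points. In the smooth muscle list 2 of 4 were called lower (background 21.1%), the passenger strands miR-143-5p (-46.4) and miR-145-3p (-37.4). On 28 and 5 fluid counts in all, both passed the filter only through the heart, so their direction was largely set by it. The main strands were not called: miR-143-3p was the most abundant microRNA of every heart sample and ranked at 89.6 to 98.9 (median 94.3) in the fluid, a difference of -5.87 points, and miR-145-5p differed by -18.3 points. The list took 22.6 ± 4.05% of heart counts and 2.28 ± 1.60% of fluid counts (SD, n = 7 each).

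Of the other microRNAs with the most negative differences, miR-10b-5p, of the HoxD cluster, had 0 counts in all 7 fluid libraries and 70106 in the heart, where it ranked at 62.5 to 86.1 (median 76.1). Its near relative miR-10a-5p had 11543 fluid counts and differed by 2.32 points, with overlapping ranges. The pair is printed with seeds in capitals.
miR-10a-5p: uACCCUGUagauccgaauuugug
miR-10b-5p: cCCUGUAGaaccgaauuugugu

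In this annotation miR-10b-5p starts at base 3 of miR-10a-5p, and from there the pair differs by U12A alone, so a count of 0 for one of them can depend on how reads were assigned. They lie at chr10:81779730-81779752 (plus strand) and chr3:80035886-80035907 (plus strand). miR-490-3p, from the muscarinic receptor gene Chrm2, ranked at 54.3 to 78.6 (median 75) in the heart with 8 fluid counts in all, a difference of -65.1 points (SE 3.78, limma adjusted p = 1.06e-10). Like miR-10b-5p, it passed the filter only through the heart, so the direction of its difference was largely set by the filter. miR-101b-3p, miR-218a-5p, miR-450b-5p and miR-106b-5p differed by -64.9, -61.7, -61.4 and -60.5 points on 76, 89, 70 and 13 fluid counts, against 36861 to 166832 in the heart. On 13 fluid counts, miR-106b-5p also passed the filter only through the heart.

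The miR-30 family, abundant in cardiomyocytes and in many epithelia, was split. Of 8 tested, 4 ranked lower in the fluid and none higher (background 21.1% in each direction), with a median of -25 points. miR-30a-5p and miR-30e-5p, which differ by 1 base, were among the heart's first 10, at 98.8 ± 0.499 and 96.6 ± 0.454, and stood at 65.7 ± 5.14 and 50.7 ± 5.79 in the fluid (SD, n = 7 each). miR-30d-5p, also of the heart's first 10, ranked at 86.4 ± 2.93 in the fluid and was not called. miR-148a-3p, also of the heart's first 10, ranked at 55.2 ± 13.1 in the fluid, a difference of -43.4 points.

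Of the red cell microRNAs 3 of 4 tested ranked lower in the fluid, and of the white cell microRNAs 1 of 4 ranked higher and 1 lower (background 21.1% in each direction). miR-451-5p and both strands of miR-144, made together in red cell precursors, ranked lower in the fluid, with differences of -44.2, -50.1 and -39.0 points. miR-486, which red cells and striated muscle both make, was high in both tissues, at 95.9 ± 1.41 in the fluid and 90.2 ± 10.4 in the heart. The heart samples were themselves uneven here: replicate 2 had 76.8 for miR-451-5p, and the others 92.1 to 98.6. Among white cell microRNAs, the myeloid miR-223-3p ranked higher in the fluid (42.0 points). On 1499 heart counts in all, it passed the filter only through the fluid. Among microRNAs with at least 10 counts in every sample it differed by 22.4 points and was not called. miR-142-5p ranked lower (-49.0), on 42 fluid counts in all and 33577 in the heart, so it passed the filter mainly through the heart. By contrast, miR-142-3p from the same hairpin differed by -2.14 points (limma adjusted p = 0.820) and miR-150-5p by 13.0.

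Neural microRNAs were low in share in both tissues (at most 1.57%). Of 5 tested, none was called higher and 2 were called lower (background 21.1% in each direction). miR-7a-5p, known from endocrine cells as well, and miR-9a-5p ranked lower in the fluid, with differences of -51 and -35.7 points, with miR-9a-3p at 20.5 and miR-129-5p at -20.2. The mesenchymal list had 1 of 3 called, near the share over all 280 (42.1% in either direction). It was miR-199a-5p at -44.7 points, with miR-199a-3p at 11.7 and miR-214-3p at -19.5. The growth-linked miR-17-92 group and its relatives had 2 higher and 3 lower of 13, near the share called over all 280 (42.1% in either direction), from miR-106b-5p at -60.5 and miR-19a-3p at -30.1 to miR-93-3p at 28.7 and miR-92b-3p at 29.0. The call of miR-92b-3p was lost without a filter, at 200 CPM, at 10 counts in every sample and with edgeR. miR-106b-5p, on 13 fluid counts in all, passed the filter only through the heart, and miR-93-3p, on 450 heart counts, only through the fluid.

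The let-7 family, made in nearly all differentiated tissues, had the median nearest to 0 of the 15 lists: none of 10 tested was called, and the median difference was 3.85 points. Even so, 8 of the 10 differences were positive, and the ranges of 6 did not overlap (50.7% over all 280). let-7i-5p ranked at 97.2 ± 0.448 in the fluid and 97.6 ± 0.448 in the heart, and let-7f-5p at 96.7 ± 1.54 and 96.1 ± 0.697. The widest gaps were let-7g-5p at -22.5 and let-7b-5p at 21.4 points, in opposite directions and without overlap. The share of counts of the family was 12.4 ± 2.37% in the fluid and 7.29 ± 1.05% in the heart (SD, n = 7 each), without overlap. let-7d-3p and let-7e-5p differed by 16.4 and 10.6. Many of these sequences differ by 1 or 2 bases, and reads may be split between them. Further microRNAs of the heart's first 10, miR-21-5p and miR-26a-5p, differed by -8.47 and -6.28 points.

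**Figure D4:**
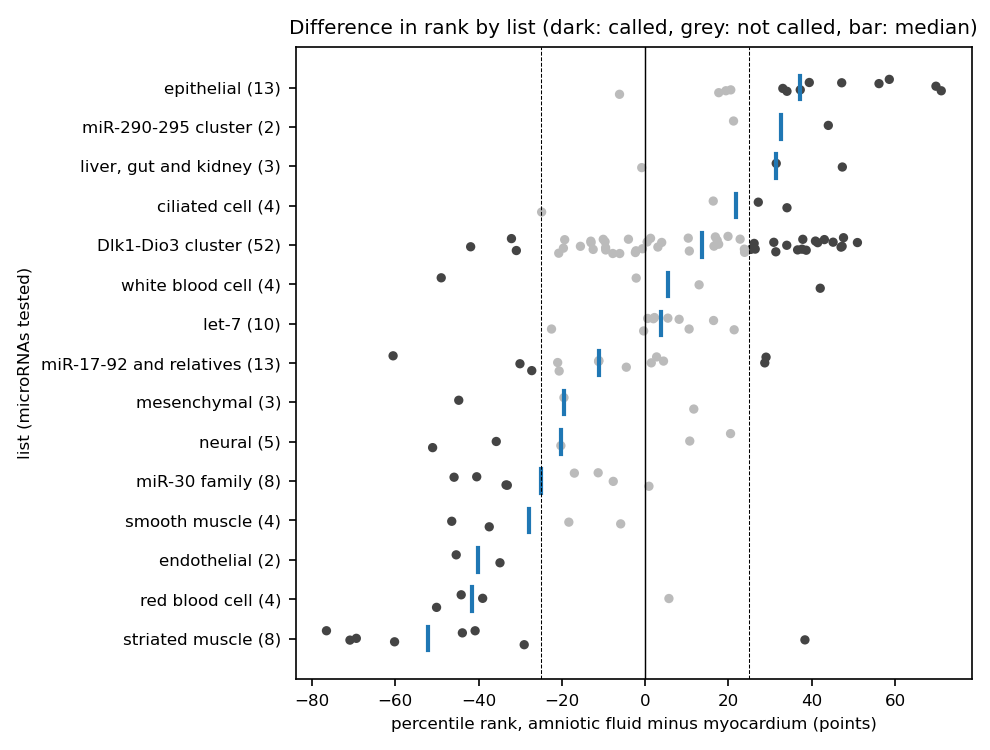
Difference in percentile rank, amniotic fluid minus myocardium (x axis), for each microRNA tested of 15 lists (y axis, ordered by median), dark where called and with a bar at the median. The striated muscle median is -52.0 and the epithelial median 37.2, and within most lists the members differ widely.

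**Figure D5:**
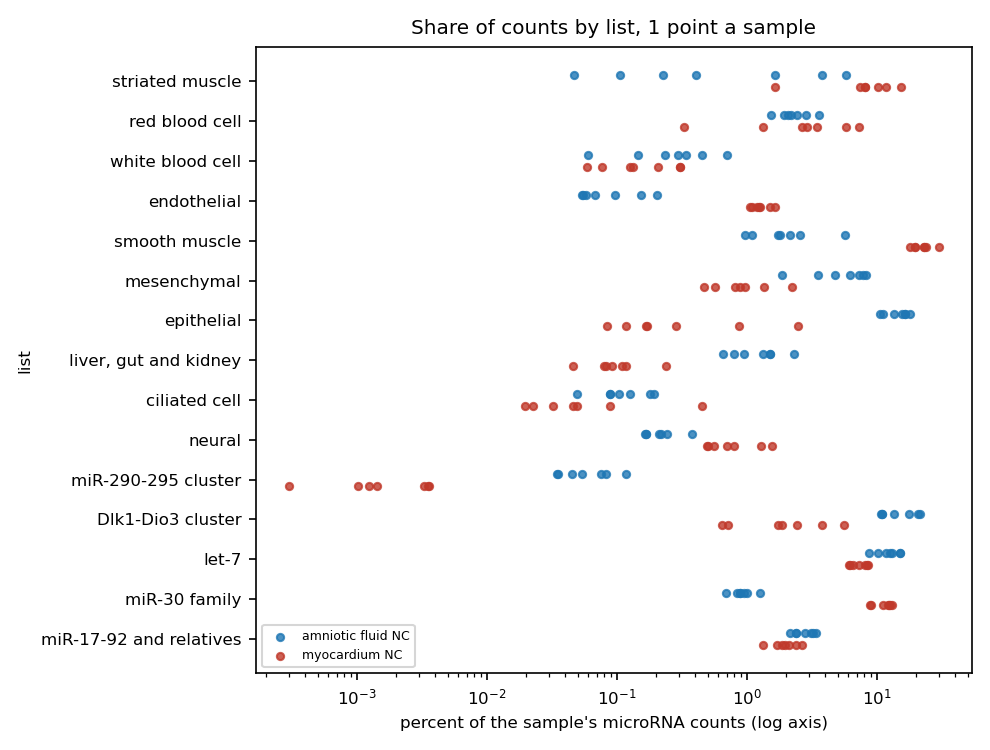
Percent of each sample's microRNA counts (x axis, log scale) taken by each of 15 lists (y axis), 1 point a sample. The fluid shares include miR-409b (Dlk1-Dio3) and miR-215 (liver, gut and kidney), which were not listed for the heart. The shares of 9 lists do not overlap between fluid and heart: epithelial, Dlk1-Dio3, miR-290-295, let-7 and the liver, gut and kidney list are higher in the fluid, and smooth muscle, endothelial, neural and miR-30 lower. By contrast, the striated muscle shares of the fluid run from 0.0469 to 5.79%.

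The striated muscle share of the fluid rested largely on 1 member. It was 0.409, 0.227, 3.82, 0.106, 5.79, 0.0469 and 1.64% in replicates 1 to 7, and miR-206-3p supplied nearly all of it in replicates 3 and 5. The heart shares were 1.66% in replicate 2 and 7.45 to 15.5% in the other 6. Replicates 3 and 5 of the fluid thus exceeded heart replicate 2 in this share, with miR-206-3p leading there and miR-1b in the heart.

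Each hairpin gives a 5p and a 3p strand, and their ratio within a sample does not use other microRNAs. Of 112 hairpins with enough counts (a summed mean of at least 200 CPM), 77 differed between the tissues by at least 1 on the log2 scale with a limma adjusted p under 0.05 (68.8%), 35 with more 5p in the fluid and 42 with more 3p. The same strand was the main one in both tissues for 90 hairpins. For 22 the main strand differed, and 19 of these were called. Over the hairpins the mean log2 ratios of the tissues had a Spearman correlation of 0.799, given as a description since hairpins are not independent. In 33 hairpins each strand had at least 100 fluid counts, and of these 24 were called and 9 changed their main strand.

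Of the 5 hairpins named in each direction, miR-199a had the most fluid counts, and its main strand differed between the tissues. Its log2 5p to 3p ratio was -7.77 ± 1.80 in the fluid and 0.44 ± 0.24 in the heart (SD, n = 7 each), from 519 and 64231 fluid counts of 5p and 3p, and the ranges did not overlap. miR-29c (-8.31), miR-106b (-7.37), miR-376a (-7.68) and miR-10b (-13.38) had the other most negative differences of the log2 ratio, on 5p counts in the fluid of 12, 13, 0 and 0. In the other direction, miR-382 went from a log2 ratio of 1.42 in the heart to 7.87 in the fluid (34052 and 287 fluid counts), and miR-322 from -0.76 to 4.58 (1508 and 98). miR-542 differed by 8.95 on 1001 and 468 counts. miR-101a (9.56) and miR-298 (6.02) rest on a strand with 5 and 0 fluid counts, where the depth of the library and the added 0.5 counts set the ratio.

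Genes of 1 cluster are transcribed together, and their agreement is a further description. Over 17 clusters with at least 2 main strands tested, the members of 10 differed in 1 direction, and the range within a cluster had a median of 21.1 points. Many clusters had only 2 members tested, which often share a direction by chance, and sets of unclustered microRNAs were not compared. The cluster of miR-106b, miR-93 and miR-25 had a range of 2.93 points with miR-106b-3p standing for miR-106b. The 5p strand of miR-106b, the main one in the heart, differed by -60.5 points, so the small range depends on the strand used. The clusters of miR-144 and miR-451 (range 5.92) and of miR-1 and miR-133a (7.17) also had small ranges. The cluster of miR-34b and miR-34c was wide, from -24.8 for miR-34c-5p to 16.4 for miR-34b-3p, as was that of miR-200c and miR-141, from 19.4 to 56.1. The 3p strand of miR-34c differed by 27.2 points, so the range of the miR-34 cluster also depends on the strand used.

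Near-identical microRNAs could also part. miR-146a-5p, an immune regulator, differed by 41.9 points and miR-146b-5p by -18.2, on 10290 and 810 fluid counts and 10153 and 45372 heart counts. These were chosen after their values were seen, and are printed since they differ by G18A and U21C, with the second 2 bases longer.
miR-146a-5p: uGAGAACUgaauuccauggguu
miR-146b-5p: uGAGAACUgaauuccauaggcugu

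When the counts of microRNAs differing by at most 2 bases were summed before ranking, 109 of the remaining 250 microRNAs were called, 55 higher and 54 lower in the fluid. miR-146a-5p and miR-146b-5p lie at chr10:28350053-28350074 (minus strand) and chr1:255144874-255144897 (plus strand).

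Maternal serum gave a yardstick for the agreement with the heart. Over 266 microRNAs listed in all 3 tables, the 7 fluid samples had a Spearman correlation of 0.35 ± 0.0191 with the mean ranks of the heart and 0.523 ± 0.0274 with those of the 7 NC serum samples (SD, n = 7). All 7 were nearer to serum, with a mean difference, heart minus serum, of -0.173 (two-sided exact sign-flip permutation p = 0.0156, the smallest that 128 sign flips can give). The difference was -0.0340 over the 432 names without a filter and -0.285 over 184 at 200 CPM, nearer to serum in each case. Serum and heart, whose libraries were made with the same kit, had a correlation of 0.461.

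Which heart sample was compared also mattered. Over the 7 heart samples, the median correlation of a sample with the fluid was 0.305, 0.447, 0.301, 0.364, 0.326, 0.386 and 0.299 in replicates 1 to 7, and the epithelial share of its counts was 0.171, 2.48, 0.0845, 0.286, 0.168, 0.875 and 0.118%. The log2 share and the correlation rose together, with Pearson r = 0.975 (exact permutation p = 0.000794, adjusted p = 0.00476) and Spearman rho = 0.929 (exact permutation p = 0.00675, adjusted p = 0.0369), adjusted over 6 relations chosen after the data were seen. Without the 2 samples farthest from the median share, replicates 2 and 6, r was 0.867 over 5 samples. The epithelial members are themselves among the 280 microRNAs, and with the correlation recomputed over the other 267 r was 0.973 and rho 1 (exact permutation p = 0.000198 and 0.000397). The striated muscle share went the other way, with r = -0.890 and rho = -0.893 (exact permutation p = 0.00794 and 0.0123, adjusted p = 0.0238 and 0.0369), and r = -0.655 without replicates 2 and 3. The part of depth or of tissue taken with the heart in these relations was not tested. For miR-206-3p in the heart r was 0.658 and rho 0.786 (0.977 without replicates 4 and 6, exact permutation p = 0.111 and 0.0480, adjusted p = 0.135 and 0.0960).

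Over the 7 fluid samples the same 3 measures were not related to the correlation with the heart at the adjusted threshold. For the epithelial share r was -0.258 and rho -0.179 (exact permutation p = 0.570 and 0.713), for the striated muscle share 0.676 and 0.571 (exact permutation p = 0.0982 and 0.200), and for miR-206-3p 0.655 and 0.571 (exact permutation p = 0.113 and 0.200). The smallest adjusted p of these was 0.135. Without the 2 samples farthest from the median they had r of 0.465, 0.481 and 0.159. With the correlation recomputed without the members of each measure, r was -0.00781, 0.563 and 0.761 and rho -0.179, 0.536 and 0.75. For miR-206-3p the exact permutation p was then 0.0498 for r and 0.0663 for rho, neither adjusted, and for the other measures 0.191 or more.

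The number of microRNAs detected at equal depth depended on the count asked for. After every sample was thinned to 75000 counts, 317 ± 34.5 microRNAs had at least 1 count in the fluid and 345 ± 19 in the heart (SD, n = 7 each, two-sided exact permutation p = 0.0973). Without fluid replicate 4 or fluid replicate 5 the difference was -34.6 (exact permutation p = 0.0315) or -33.4 (exact permutation p = 0.0460). With at least 5 counts the order turned, to 252 ± 7.21 in the fluid and 215 ± 19.7 in the heart (exact permutation p = 0.00175). Unthinned, the counts were 327 ± 44.0 and 573 ± 20.5, in libraries of unequal depth.

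Base content differed between the ends of the scale. Of the 280 microRNAs, 254 matched a RefSeq sequence, and their GC content had a Spearman correlation of 0.252 with the difference in rank, given as a description. The mean GC content was 50.1% for those called higher in the fluid, 42.5% for those called lower and 48.9% for the rest. The correlation of GC content with the mean percentile was 0.0781 in the fluid and -0.215 in the heart. The part of GC content in the differences cannot be told apart from kit and tissue.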

How the data were processed

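MicroRNAs were measured by small RNA sequencing in 7 amniotic fluid and 7 myocardium control samples, with 7 control serum samples as a reference. The authors converted and quality-filtered the reads (bcl2fastq 2.19 and DESeq are named in the submitters' processing notes) and deposited counts of reads per mature microRNA. The aligner, the annotation, the genome build and any use of the fluid kit's molecular identifiers are not given in the sources used here. The normalized columns (CPM and normalized counts) and the columns of the authors' comparisons (fold changes and p-values between the NC and the exposed groups) were not used.

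Names were joined, and microRNAs with a mean CPM of at least 50 over the 14 samples were ranked within each sample. Ranks were compared in R 4.3.3 with limma 3.58.1 (trend, Benjamini-Hochberg), after the steps were tested on simulated data. Python 3.11.15 with scipy 1.17.1 gave the correlations and the exact permutation tests, and edgeR 4.0.16 and DESeq2 1.42.0 served as alternatives. Strand ratios used log2 with 0.5 counts added. The members, lists and tests were chosen with earlier results of these data known. Named microRNAs were the striated muscle list, the 10 most positive and 10 most negative called differences without overlap, the first 10 of each tissue, up to 4 of each other list, and 5 hairpins in each direction. Depth was 79234 to 248295 counts in the fluid and 4366457 to 9371130 in the heart, and intervals for a count of 0 cover counting error only. Same-numbered samples of the tissues were not paired, since the labels give no pairing. Only 1 of 7 correlations of their deviations exceeded 0.1, which cannot show whether any of them shared a fetus or dam.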

Additional observations from a re-analysis of the deposited data

Results flagged for a closer look

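In groups of 7 samples, a sample was singled out where its gap to its nearest neighbour took a larger part of the range than Dixon's critical value at 95% for 7 values allows. This was applied to 217 groups of values, of which chance alone would give about 1 in 20, and 42 met it, 23 of them for myocardium NC replicate 2.

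Heart replicate 2 had a median correlation with its own tissue of 0.849 (others 0.932 to 0.962). It was high in the epithelial share (2.48%, others 0.0845 to 0.875%), the liver, gut and kidney share (0.238%, others 0.0459 to 0.118%) and the ciliated cell share (0.456%, others 0.0199 to 0.0888%). It was low in percentile for muscle and blood microRNAs and a few others: miR-1-3p (82.5, others 95.7 to 98.9), miR-1b (93.9, others 98.6 to 99.3), miR-133a-3p (72.5, others 90.4 to 95), miR-133a-5p (8.93, others 32.9 to 49.6), miR-133b-3p (19.3, others 48.2 to 56.1), miR-208b-3p (17.1, others 61.1 to 75), miR-499-5p (51.8, others 80 to 88.6), miR-483-5p (32.5, others 48.6 to 52.5), miR-451-5p (76.8, others 92.1 to 98.6), miR-486 (66.8, others 91.8 to 96.1) and miR-142-5p (25.7, others 57.9 to 77.5). It was high for miR-141-3p (33.6, others 1.96 to 11.8), miR-375-3p (61.1, others 6.07 to 25), miR-450b-5p (85, others 79.3 to 81.4), miR-199a-3p (92.9, others 84.3 to 87.9), miR-449a-5p (71.1, others 6.43 to 31.8), miR-34b-3p (13.0, others 4.29 to 7.68), miR-154-5p (14.3, others 6.25 to 9.11) and miR-92b-3p (55.4, others 9.11 to 20.4). The cause was not tested.

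In other heart samples, the percentile stood apart for miR-196b-5p in replicate 3 (10.7, others 0.893 to 2.32), miR-148a-3p in replicate 7 (96.8, others 98.6 to 99.3), miR-223-3p in replicate 7 (26.2, others 13.6 to 18.9) and miR-143-5p in replicate 3 (63.6, others 50 to 55.4). The log2 strand ratio of miR-376a in replicate 4 was 2.47 (others 0.24 to 1.12).

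In the fluid, the percentile stood apart for miR-133a-3p in replicate 5 (44.6, others 2.68 to 16.1), miR-133a-5p in replicate 5 (25.9, others 3.04 to 10.5), miR-3473 in replicate 1 (98.2, others 99.3 to 100), miR-199a-3p in replicate 2 (94.6, others 98.2 to 100), miR-434-3p in replicate 2 (93.6, others 96.4 to 98.2), let-7a-5p in replicate 4 (94.3, others 96.4 to 97.5), miR-144-5p in replicate 7 (50.7, others 2.68 to 22.0), miR-34c-3p in replicate 7 (14.8, others 29.8 to 38.8), miR-34b-3p in replicate 2 (51.1, others 12.5 to 27.1) and miR-93-3p in replicate 2 (8.39, others 32.5 to 49.5). Fluid replicate 2 had a median correlation with its own tissue of 0.864 (others 0.881 to 0.892) and a log2 strand ratio of miR-199a of -11.58 (others -7.92 to -6.30). Replicate 4 had a smooth muscle share of 5.69% (others 0.967 to 2.56%), and replicate 5 a neural share of 0.377% (others 0.166 to 0.242%).

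Some abundant microRNAs stood in 1 table only and so were not in the main rank comparison, although the union of names ranked them. Of these, miR-215 and miR-409b also counted in the fluid shares of the liver, gut and kidney list and the Dlk1-Dio3 list. Listed for the fluid alone were miR-215 (mean 3992 CPM, range 1349 to 7397), miR-3553 (mean 3748 CPM, range 2551 to 4816), miR-3557-5p (mean 1297 CPM, range 593 to 2735) and miR-409b (mean 7949 CPM, range 4822 to 10881), and listed for the heart alone was miR-193b-3p (mean 181 CPM, range 77.4 to 427).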

How the results depend on the processing

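The 118 calls became 218 with no size limit, 200 on log2(CPM + 1) (127 higher in the fluid), 203 with edgeR (88 higher), 210 with DESeq2 (89 higher) and 64 among the 156 microRNAs with at least 10 counts in every sample. They were 115 to 120 with 1 sample left out and 118 with the replicate number as a block, and the other settings stayed within 1.5 times. The labels do not pair the numbers. Same-numbered samples had correlations of -0.022 to 0.185, and 0 of 7 fluid samples correlated best with their own number, which cannot decide whether any shared a dam. The block gave 78 strand-ratio calls against 77. Strand-ratio calls were 51 of 66 hairpins at a summed mean of at least 1000 CPM, and 74 to 79 with 1 sample left out. The median correlation between tissues of 0.331 was 0.630 without a filter, 0.0989 at 200 CPM, 0.274 at 10 counts in every sample, 0.297 over the union of names and 0.354 with near-identical sequences summed, a setting chosen after seeing the data, and 0.320 to 0.338 with 1 sample left out. The first 50 shared 22 to 23 microRNAs with 1 sample left out. The difference of -27.3 microRNAs detected reversed to 37 at 5 counts and was -246 (exact permutation p = 0.000583) without thinning. It ranged over -34.6 to -18.7 with 1 sample left out, and passed the threshold without fluid replicate 4 (-34.6, exact permutation p = 0.0315) or 5 (-33.4, exact permutation p = 0.0460). The difference in the share of the 10 most abundant, -19.4 points, was -20.2 to -18.3 with 1 sample left out, and the correlation with the heart minus that with serum was -0.191 to -0.173. The median cluster range of 21.1 points was 16.5 without a filter, 23.3 at 10 counts in every sample, 18.9 after thinning and 19.7 to 21.5 with 1 sample left out. List medians turned over at 10 counts in every sample for red blood cell (7.51, 1 microRNA left), white blood cell (-1.83, 3 left), mesenchymal (18, 1 left) and ciliated cell (-12.9, 2 left), and for ciliated cell at 200 CPM (-1.91, 2 left). The cause of these moves was not tested beyond the change in which microRNAs were ranked. No named microRNA or hairpin that was called changed sign under the alternatives that still ranked it, and 14 signs differed where neither setting made a call. The setting with near-identical sequences summed was left out of this check. At 10 counts in every sample miR-1-3p, miR-133a-3p, miR-133a-5p, miR-133b-3p, miR-208b-3p and miR-499-5p dropped out, so they were not checked there. A named microRNA lost its call 17 times: without a filter miR-434-3p, miR-30a-5p, miR-126a-3p, miR-192-5p, miR-9a-5p, miR-30c-5p, miR-19a-3p and miR-92b-3p, at 200 CPM miR-449a-5p and miR-92b-3p, at 10 counts in every sample these and miR-206-3p and miR-223-3p, after thinning miR-34c-3p, and with edgeR miR-449a-5p and miR-92b-3p. The fluid depth limits what can be said of microRNAs with few counts there.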
